A study of Mus musculus with 10 samples.

Results

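The DNA methylation landscape of sperm from the CAST/EiJ strain, the fathers of the embryos in the series, was described from 2 libraries labelled biological duplicates. Members were the autosomal cytosine positions with at least 10 counts, methylated plus unmethylated, in both sperm libraries. There were 76043 such positions, out of 253122 autosomal positions covered in either sperm library and 344353 distinct positions over the 10 libraries of the series. The sperm was collected from the cauda epididymis of adult males and carried the genotype label WT. The labels do not give the number of males behind a library, so the spread between the libraries may be technical. The other 8 libraries are WT zygotes, WT blastocysts and zygotes and blastocysts of the genotype maternal Tet3 KO, all from C57BL/6J eggs and CAST/EiJ sperm, and their levels were not used.

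The assay was reduced representation bisulfite sequencing (RRBS), in which MspI cuts DNA at CCGG so that CpG-rich fragments are read. Bisulfite turns unmethylated cytosine into uracil, and a read then shows whether the cytosine was protected, by a methyl or a hydroxymethyl group alike. In the male germ line of the mouse, methylation is laid down before birth by Dnmt3a and its cofactor Dnmt3l, and most CpGs of mature sperm carry it. CpG islands, the short CpG-dense stretches found at many promoters, are known to stay free of it. Imprint control regions keep the methylation of a single parent, and sperm is known to be methylated at the paternal ones and unmethylated at the maternal ones.

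Replicate 1 held 2535229 counts over 211315 positions and replicate 2 held 2315949 counts over 218633 positions, chromosome X included. The member positions held 1776383 and 1661152 of these counts, with a median of 21 counts per position in replicate 1 and 19 in replicate 2. At the minimum of 10 counts a level can only move in steps of 10 points. Just inside the minimum, where the shallower library had 10 counts, 66.0% and 65.7% of 7163 positions were at 20% or less in replicates 1 and 2. Just outside, at 9 counts, the shares were 62.9% and 62.2% of 7308 positions.

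The sperm label was first set against the imprint control regions. The paternally methylated Dlk1-Gtl2 region, which governs a cluster of imprinted genes on chromosome 12, had 243 of 254 counts methylated in replicate 1 (95.7%, 95% exact Clopper-Pearson interval 92.4 to 97.8) and 164 of 168 in replicate 2 (97.6%, interval 94.0 to 99.3). Its 11 covered positions lay between 110764888 and 110768128, and 8 of them were members, each at 89.3% or more in both libraries. The H19/Igf2 region on chromosome 7 had 8 of 8 and 8 of 12 counts methylated at 2 positions that were too shallow to be members. Rasgrf1 had no count.

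Of the maternally methylated regions, Snrpn, Kcnq1ot1, Plagl1 and Igf2r/Airn were at or near 0 in both libraries. Snrpn on chromosome 7 had 0 of 193 counts in replicate 1 and 0 of 163 in replicate 2, which allow a share of up to 1.55% and 1.84%, taken as 3 counts of the total (exact Clopper-Pearson upper bounds 1.89% and 2.24%). Kcnq1ot1 on chromosome 7 had 0 of 112 and 0 of 140, with limits of 2.68% and 2.14% on the first scale and 3.24% and 2.60% on the second. The single Plagl1 position on chromosome 10 had 0 of 29 and 0 of 33. At Igf2r/Airn on chromosome 17, 1 of 125 and 0 of 65 counts were methylated. Zrsr1 on chromosome 11 had 10 of 72 and 6 of 53. Intervals and limits cover counting error only and take neighbouring positions, which can share reads, as separate evidence, which can make them too narrow.

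Grb10, a growth-restraining imprinted gene on chromosome 11, had unlike counts in the replicates, with no position called. Its 11 positions between 11926213 and 11926771 had 0 of 148 counts methylated in replicate 1 and 25 of 98 in replicate 2. In replicate 2, 6 of the 7 member positions each had 4 of 11 counts methylated, against 0 of 17 in replicate 1, while the member position 11926213 had 0 of 11. Such equal counts are what 4 shared reads would give. None of the 6 passed Fisher's exact test over all positions (adjusted p = 1 for each, unadjusted p = 0.0161). Nespas/Gnas on chromosome 2 had 0 of 15 and 1 of 12, Peg3 had 5 counts, all unmethylated, in replicate 2 alone, and no count fell at Mest, Peg10, Nnat or Mcts2.

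Sperm methylation was bimodal. Positions at 20% or less made up 60.9% ± 0.179 of the members (SD, n = 2), positions at 80% or more 33.7% ± 0.0651, and the positions between these limits 5.44% ± 0.245. In replicate 1 the low, intermediate and high shares were 61.0%, 5.26% and 33.8%, and in replicate 2 they were 60.7%, 5.61% and 33.7%. The level was exactly 0 at 54.7% and 55.7% of positions and exactly 100 at 19.7% and 22.1%. Between 20% and 80% no step of 10 points held more than 1.39% of positions in either library. The intermediate share followed the limits set, at 10.6% with limits of 10% and 90% and 3.16% with limits of 30% and 70%. The mean level over positions was 36.0% ± 0.118 (SD, n = 2).

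**Figure D1:**
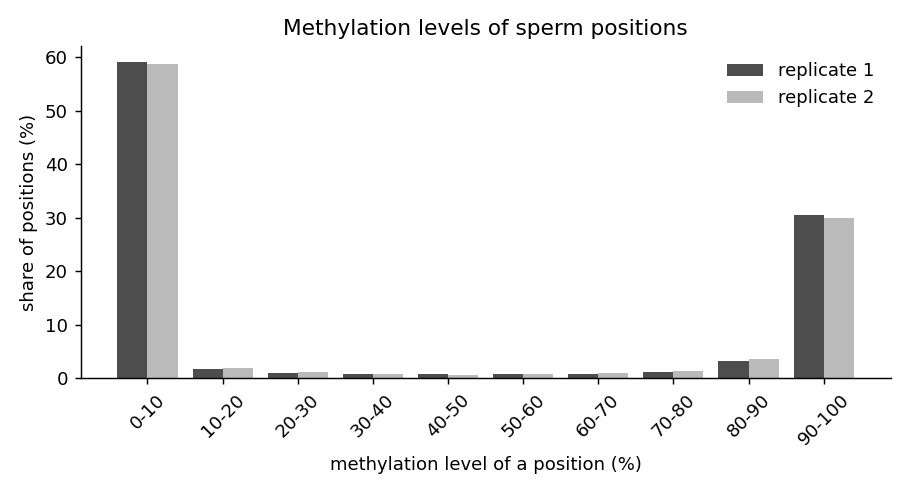
Share of the 76043 sperm positions (y axis, percent) in each 10-point step of methylation level (x axis, percent), with a dark bar for replicate 1 and a light bar for replicate 2. The lowest step held 59.1% and 58.7% of positions and the highest 30.5% and 30.0%.

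These shares depended on what was counted. Neighbouring positions are read together: among position pairs 2 to 10 bases apart, 87.8% had equal counts in replicate 1 and equal counts in replicate 2, among pairs 11 to 50 bases apart 81.2%, and among pairs 51 to 100 bases apart 0.385%. Grouping positions with equal counts that lay at most 50 bases from the first of their group gave 31821 groups, with a mean of 2.39 positions and at most 15. When each group counted once by its mean level, 39.9% ± 0.153 were at 20% or less, 14.5% ± 0.182 between the limits and 45.6% ± 0.0289 at 80% or more (SD, n = 2), with a mean level of 52.5% ± 0.139. A group that held both low and high positions could be intermediate by its mean alone. There were 2267 groups with both in both libraries, so the intermediate share of groups is not a share of intermediate positions.

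Low methylation went with local density. A tile is a stretch of 100 bases counted from the start of the chromosome, and its density is the number of member positions in it. Positions alone in their tile (17106, or 22.5% of all) were mostly methylated, with 64.5% ± 0.120 at 80% or more and 26.7% ± 0.182 at 20% or less (SD, n = 2). In tiles of 2 to 3 positions the high and low shares were 42.8% ± 0.179 and 50.1% ± 0.362, and in tiles of 4 to 7 they were 11.7% ± 0.0880 and 85.5% ± 0.0220. In the 898 tiles of at least 8 positions, which hold 8708 positions, 98.4% of positions were low in each library and 1.25% ± 0.00812 were high.

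**Figure D2:**
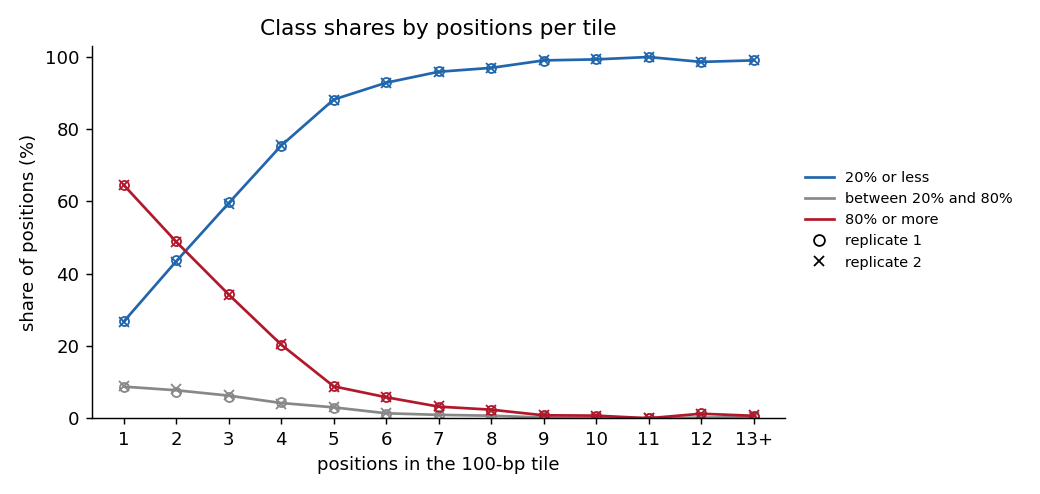
Share of positions at 20% or less, between the limits and at 80% or more (y axis, percent) by the number of member positions in their 100-bp tile (x axis). Lines are means of the 2 libraries, circles replicate 1 and crosses replicate 2. The low share was 26.7% at 1 position and 88.2% at 5, and low and high shares crossed between 2 and 3 positions.

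The low share of tiles of at least 8 positions lay 71.7 ± 0.182 points above that of positions alone in their tile (SD, n = 2), a difference far larger than the spread between libraries. Both libraries hold both kinds of tile, so the library is the pair. The exact two-sided sign-flip permutation p was 0.5, the smallest that 2 libraries can give. The steepest steps came early, since the low share was 43.4% ± 0.405 at 2 positions, 59.5% ± 0.301 at 3, 75.4% ± 0.101 at 4 and 88.2% ± 0.0232 at 5. The intermediate share fell along the same scale, to 0.339% ± 0.00812 in tiles of at least 8 positions, against 8.74% ± 0.302 at positions alone in their tile. Median counts were nearly level across the scale, at 19 and 17 in the densest tiles and 21 and 20 at positions alone in a tile.

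Dense tiles were also uniform inside. Of the 898 tiles of at least 8 positions, 872 had every position at 20% or less in both libraries, 3 had every position at 80% or more in both, and none had every position between the limits in either. The tile with the most positions among the uniformly low ones lay on chromosome 5 at 125343101 to 125343200, with 22 positions at a mean of 0% in replicate 1 and 0.496% in replicate 2. Tiles on chromosome 1 at 45852501 to 45852600 and on chromosome 3 at 100489901 to 100490000 each held 21 positions, all at 0% in both libraries. Both low and high positions were held by 8 of the 898 tiles in both libraries. By mean level over their positions, 1.00% and 1.45% of the 898 tiles were at 80% or more in replicates 1 and 2. Dense methylated tiles were thus not limited to uniform ones. The 3 uniformly methylated tiles had 8 positions each. They lay on chromosome 1 at 166753301 to 166753400 (97.6% and 98.6% in replicates 1 and 2), on chromosome 5 at 9408201 to 9408300 (97.8% and 93.0%) and on chromosome 7 at 130315501 to 130315600 (99.2% and 97.9%).

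Low methylation also went with close spacing. Positions whose nearest member lay 2 to 10 bases away were low in 81.7% ± 0.171 of cases and high in 15.2% ± 0.0204 (SD, n = 2). With the nearest member 1 base away, on the opposite strand, 78.1% ± 0.0173 were low. At 11 to 50 bases the shares were 49.6% ± 0.231 low and 43.2% ± 0.113 high. The order was not steady: at 51 to 100 bases 20.0% ± 0.0820 of 862 positions were low, fewer than the 27.9% ± 0.202 over 100 and up to 1000 bases. The 5976 positions with no other member within 10000 bases were the most methylated, with 12.9% ± 0.225 low and 77.9% ± 0.260 high. Intermediate levels were most frequent in between, at 12.9% ± 0.252 of the 1403 positions with the nearest member over 100 and up to 1000 bases away, against 9.21% ± 0.485 beyond 10000 bases and 3.05% ± 0.151 at 2 to 10 bases. Among positions alone in their tile the low share also differed by spacing. It was 43.3% ± 0.212 where another member lay within 100 bases and 13.8% in each library where it lay over 1000 and up to 10000 bases away. A member within 100 bases of such a position lies in the adjoining tile, so this split does not hold density fixed. The low share at 2 to 10 bases exceeded that beyond 10000 bases by 68.8 ± 0.0534 points, again at the smallest possible exact permutation p of 0.5.

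Dense tiles sat inside wider stretches without methylation. The positions of tiles with 1 to 3 members were ordered by their distance from the nearest tile of at least 8 members, whatever the level of that tile. Within 100 bases, 97.8% ± 0.149 of 473 such sparse positions were low, over 100 and up to 300 bases 99.5% ± 0.229 of 309, and over 300 and up to 1000 bases 95.6% ± 0.506 of 419 (SD, n = 2). The change came between 1000 and 3000 bases, where 64.6% ± 1.64 of 216 positions were low and 26.9% ± 1.31 high. Over 3000 and up to 10000 bases the low share was 42.6% ± 1.06 and the high share 50.1% ± 0.353, and beyond 100000 bases the shares were 39.3% ± 0.326 and 52.7% ± 0.165.

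**Figure D3:**
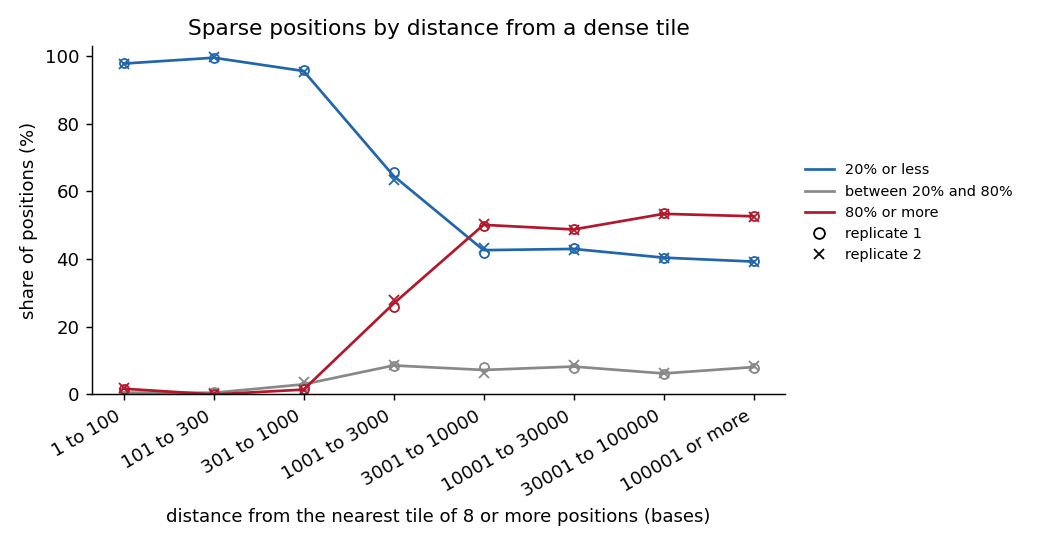
Share of positions at 20% or less, between the limits and at 80% or more (y axis, percent) among positions of tiles with 1 to 3 members, by distance in bases from the nearest tile of at least 8 members (x axis, unequal steps). Lines are means of the 2 libraries, circles replicate 1 and crosses replicate 2. The low share stayed above 95% up to 1000 bases and was 42.6% over 3000 and up to 10000 bases.

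Runs of neighbouring positions of the same class, by the mean of the 2 libraries, were broken at gaps over 1000 bases. They differed between the classes in the number of covered positions. Of 11053 low runs, 1162 had at least 10 positions and together held 35.9% of the low positions, whereas 6 of 15854 high runs were that long. A single position made up 4026 of the low runs and 9417 of the high runs. Runs of at least 2 positions had a median of 5 positions over 45 bases for the low class and of 2 positions over 33 bases for the high class. Run length counts covered positions, which were sparser where methylation was high, so it does not measure the extent of methylated stretches. The part of lone low positions that split high runs, described below, was not tested. The low run with the most positions lay on chromosome 5 at 44617430 to 44618424, with 43 positions over 995 bases at 0.166% and 0.0646% in replicates 1 and 2. Next came runs of 39 positions on chromosome 5 at 125342467 to 125343217 and on chromosome 9 at 35228850 to 35229488. The high runs with the most positions were on chromosome 15 at 8212844 to 8213106 (11 positions, 97.7% and 96.4%), on chromosome 4 at 136851616 to 136852320 (10 positions, 97.5% and 94.4%) and on chromosome 8 at 90304753 to 90304856 (10 positions, 95.7% and 100%).

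Adjacent positions usually shared their class. Pairs 2 to 10 bases apart were of the same class in 94.2% ± 0.248 of cases (SD, n = 2) and differed by a mean of 5.21 points. At 11 to 50 bases the same-class share was 84.9% ± 0.603 and at 51 to 100 bases 84.5% ± 1.62. Over 100 and up to 1000 bases, beyond the reach of a shared read, it was 88.1% ± 0.402. With equal-count groups counted once, the share was 86.8% ± 0.528 at 2 to 10 bases and 88.2% ± 0.212 at 11 to 50 bases. Over 100 and up to 1000 bases it was 86.6% ± 0.593, so over groups the closest pairs were not the most alike. Over positions the share dropped to 53.9% ± 0.679 over 1000 and up to 10000 bases, where pairs differed by a mean of 39.3 points. Over groups it was 47.5% there. Pairs drawn at the class shares of all positions would match in 48.7% ± 0.236 of cases. This baseline is the same for every distance, although the class make-up was not. In replicate 1, pairs 2 to 10 bases apart held 40314 low, 1165 intermediate and 5935 high positions, counted in each pair. Over 1000 and up to 10000 bases they held 3527, 716 and 5335. Likeness beyond the class make-up at each distance was not tested.

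**Figure D4:**
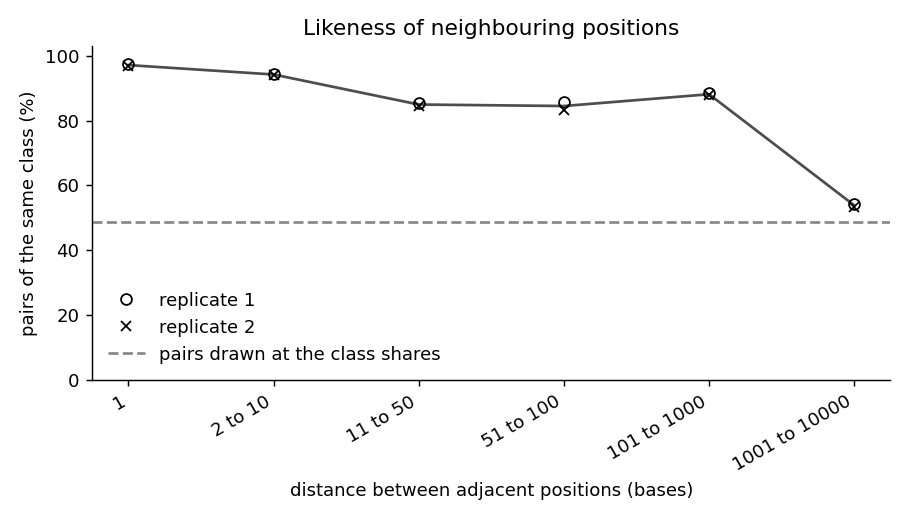
Share of adjacent position pairs in the same class (y axis, percent) by the distance between them in bases (x axis, unequal steps), with circles for replicate 1, crosses for replicate 2 and a line through their means. The dashed line is the share that pairs drawn at the class shares of all positions would have, whatever the class make-up at a distance. The share lay above 83% up to 1000 bases and at 53.9% beyond.

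The opposite strands of a CpG, which are read from different DNA strands, were seen as 2203 pairs of positions 1 base apart. They were of the same class in 97.3% of pairs in replicate 1 and 96.9% in replicate 2, and the mean absolute difference was 2.28 and 2.39 points. In each library 12 pairs had a low strand opposite a high one, and 12 pairs differed by over 50 points in both libraries. These strand differences were sharp: on chromosome 2, position 130967570 was at 100% and 97.4% in replicates 1 and 2, and the opposite strand at 130967571 was at 0% in both. The neighbouring pair had the reverse pattern, with 0% in both libraries at 130967620 and 96.4% and 100% at 130967621. Position 130967570 and position 130967620 had the same counts, 24 in replicate 1 and 38 in replicate 2, and so may be the 2 ends of the same reads. Similar couples lay on chromosome 5 at 65183160, on chromosome 8 at 103757942, on chromosome 9 at 67453844 and on chromosome 15 at 95899980. They were picked for this pattern after their values were seen. The library protocol fills in the MspI ends with fresh nucleotides, and the part of that step in these low calls was not tested.

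Low and high positions also met within equal-count groups. Of the 18478 equal-count groups of at least 2 positions, 9082 were low throughout in both libraries, 4866 were high throughout and 2267 (12.3%) held both low and high positions. Among positions whose neighbours on either side lay within 50 bases and were both high, 599 of 3190 (18.8%) were low in both libraries, and 558 of these were at exactly 0 in both. The reverse was rare: 27 of 24101 positions with low neighbours on either side were high (0.112%). In mixed groups of at least 3 positions, 44.8% of 1178 low positions lay at an end of the group, against 64.7% of 2433 high ones, and 94.7% of the low ones were at exactly 0 in both libraries, against 86.7% of all positions low in both libraries, 79.2% of those in tiles of 1 to 3 members and 91.5% of those in tiles of at least 4. An example is the tile on chromosome 4 at 119769501 to 119769600, where position 119769557 was at 0% in both libraries, with 19 and 26 counts, and the other 8 positions were at 78.9% or more. CAST/EiJ reads were placed on a build made from another strain, and the part of strain differences in such lone low positions was not tested.

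The 19 autosomes ranked from chromosome 8, with a mean level of 41.0% ± 0.158 (SD, n = 2), to chromosome 19, with 32.0% ± 0.0234. Chromosome 8 had 40.9% and 41.1% in replicates 1 and 2 over 4257 positions, 55.5% of them low and 38.7% high. Chromosome 17 (38.5% ± 0.0357) and chromosome 15 (37.9% ± 0.102) came next. At the lower end chromosome 19 had 32.0% in both libraries over 2540 positions, 64.9% of them low and 29.4% high, followed by chromosome 16 (34.1% ± 0.0793) and chromosome 1 (34.4% ± 0.0730). The gap of 8.96 ± 0.135 points between chromosome 8 and chromosome 19 was larger than the spread between libraries, as was the gap of 2.48 ± 0.122 points between chromosome 8 and chromosome 17. That second gap narrowed with another count minimum, with chromosome 8 at 38.1% and chromosome 17 at 36.6% for a minimum of 5, and 43.2% and 41.9% for a minimum of 20. In 5 of the 18 steps of this order the gap was within the SD of the difference: from 12 to 3, 3 to 18, 18 to 6, 9 to 11 and 11 to 7. The SD covers the libraries only, not which fragments RRBS happens to read on a chromosome.

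The chromosomes also differed in density. Chromosome 19 had the largest share of positions in tiles of at least 4 (44.7%) and chromosome 8 the smallest (37.8%). Within tiles of 1 to 3 positions, however, chromosome 8 was still the highest, at 58.9% ± 0.268, and chromosome 19 the lowest, at 49.8% ± 0.102. Within tiles of at least 4 positions chromosome 8 ranked in place 4 and chromosome 19 in place 8, and the range was 7.48% on chromosome 3 to 13.2% on chromosome 15.

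**Figure D5:**
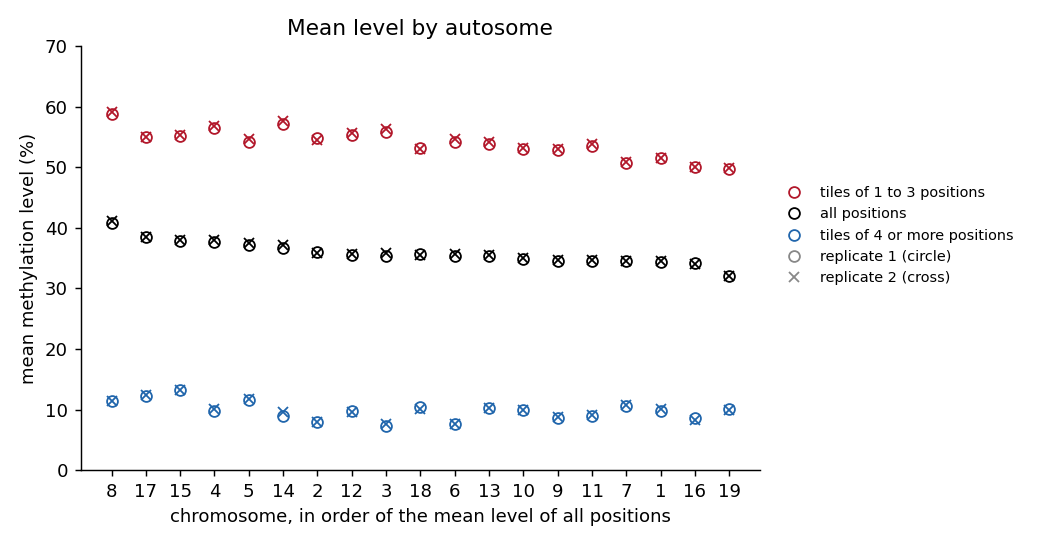
Mean methylation level (y axis, percent) of each autosome, in order of the level over all positions (x axis), for positions of tiles with 1 to 3 members (red), all positions (black) and positions of tiles with at least 4 members (blue), with circles for replicate 1 and crosses for replicate 2. Over all positions the level was 41.0% on chromosome 8 and 32.0% on chromosome 19.

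With the positions of all autosomes pooled, the level was higher towards the distal end. The covered extent of each autosome was cut into 3 equal segments, counted from the end where coordinates start, which in the mouse is the centromere. The positions of each segment were pooled over the autosomes, and the segments were not compared within single chromosomes. The last segment averaged 38.96% ± 0.110, the first 33.0% ± 0.119 (SD, n = 2), a gap of 5.99 ± 0.00931 points that exceeds the spread between libraries (exact permutation p = 0.5, the smallest possible). It was present in tiles of 1 to 3 positions (56.2% ± 0.160 in the last segment and 52.2% ± 0.166 in the first) and in tiles of at least 4 (12.4% ± 0.0330 and 7.76% ± 0.0573). Over 478 windows of 5 Mb with at least 20 positions the level ran from 6.00% to 75.8%, with a median of 34.4%. The replicates differed by a median of 0.527 points and at most 5.21 points in a window. The highest windows lay on chromosome 11 at 35000001 to 40000000 (75.8% in both libraries, 77 positions), on chromosome 6 at 75000001 to 80000000 (69.7% and 67.5%, 25 positions) and on chromosome 6 at 100000001 to 105000000 (65.7% and 67.8%, 66 positions). The lowest lay on chromosome 14 at 40000001 to 45000000 (6.50% and 5.50%, 51 positions), chromosome 3 at 60000001 to 65000000 (6.02% and 6.77%, 27 positions) and chromosome 12 at 60000001 to 65000000 (9.04% and 8.98%, 100 positions). The low windows were dense, with 72.5%, 85.2% and 74.0% of their positions in tiles of at least 4, against 14.3%, 16.0% and 19.7% in the high windows. Over the windows this share and the level had a Pearson r of -0.667, given as a description, since both come from the same positions.

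The replicates placed 95.8% of positions in the same class. Of the positions, 45593 were low in both, 24700 high in both and 2524 between the limits in both, and 7 were low in one library and high in the other. Low calls held best: 98.3% of the low positions of replicate 1 were low in replicate 2 and 96.2% of its high positions were high, whereas 63.1% of its intermediate positions were intermediate again, 22.3% were high and 14.6% low. The absolute difference between the libraries was 0 at the median position and 3.18 points on average, and 89.6% of positions differed by at most 10 points. At the 3904 positions between the limits by pooled counts, the median difference was 14.3 points, and the correlation of the libraries (Pearson r, across positions that share reads) was 0.497, against 0.987 over all positions. These positions were chosen by their level in the same libraries, which narrows the range. The lower r therefore cannot by itself be read as poorer agreement. The mean squared difference at these positions was 2.05 times the binomial expectation, as described below.

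Single positions were then compared between the replicates. The mean squared difference was 1.94 times the binomial expectation over all positions. By class from pooled counts it was 1.88 times at low, 2.05 times at intermediate and 1.84 times at high positions. That expectation takes every count as an independent molecule of the same sample, so a ratio above 1 is a description and no test. Fisher's exact test with Benjamini-Hochberg adjustment called 2 of 76043 positions at an adjusted p below 0.05, or 0.00263%, and 1463 (1.92%) had an unadjusted p below 0.05. This test compares the 2 libraries, not conditions, and at these depths a small number of calls does not show that single positions agree. Both called positions were higher in replicate 2. Position 117098884 on chromosome 5 had 5 of 18 counts methylated in replicate 1 and 33 of 33 in replicate 2 (Fisher's exact test, adjusted p = 0.00137), and position 31839121 on chromosome 7 had 3 of 21 and 15 of 16 (adjusted p = 0.0491). The count was 1 of 119393 positions at a minimum of 5 counts and 0 of 27911 at a minimum of 20. On counts summed per tile it was 70 of 34518, but such sums count a read once for each position it covers.

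Depth moved with the class shares. Where the shallower library had 10 to 14 counts 64.1% ± 0.184 of positions were low, and where it had at least 40 counts 52.7% ± 0.0456 were (SD, n = 2). Within tiles of 1 to 3 positions the same shares were 42.2% ± 0.345 and 39.1% ± 0.0980, and within tiles of at least 4 they were 90.6% ± 0.0106 and 84.0% ± 0.377. The part of depth in the other splits was not tested beyond these values.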

How the data were processed

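RRBS of 2 CAST/EiJ sperm libraries was used. The deposited files have no header. Each line gives a cytosine, the authors' methylation percent for it and the deposited counts of methylated and unmethylated reads, and dividing the counts gave back the percent to within 0.001 points at 100% of positions. Bismark 0.10.1, Trim Galore and the mm9 build are listed in the submitters' processing notes. For their settings, the removal of filled-in ends and the treatment of strain differences, nothing is stated in the labels. The mm9 build represents C57BL/6J, so a CpG lost in CAST/EiJ can be read as unmethylated, and so can a filled-in cytosine. Coordinates are mm9, counted from 1. Genes were not assigned and no sequence was read, since the tables at hand describe GRCm38. Imprint windows were placed from general knowledge of mm9.

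Positions with at least 10 counts in both sperm libraries, on autosomes, were used. A class comes from each library's own percent, and shares are means ± SD over 2 libraries, of 1776383 and 1661152 counts. Runs instead took the class from the mean of the 2 libraries, and the replicate differences by class took it from pooled counts. Differences between bins used an exact sign-flip permutation test, replicate differences Fisher's exact test with Benjamini-Hochberg adjustment at 0.05 (Python 3.11.15, scipy 1.17.1). The Fisher step was tested on simulated counts. Regions named were the imprint windows with counts, the 3 highest and lowest chromosomes and windows, the 3 longest runs and fullest uniform tiles, and the positions with the largest called replicate difference. The splits by distance from dense tiles and by equal-count groups, and the single mixed tile, were chosen after seeing values. Members and lists were chosen with earlier results of these data known.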

Additional observations from a re-analysis of the deposited data

How the results depend on the processing

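No paired analysis was possible because the sperm libraries form a single group, so that replicate numbers pair nothing between groups; the differences between kinds of position were taken within each library, as given above. The differences below kept their direction, but with equal-count groups counted once the low share fell below the high share.

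At a count minimum of 5 the low share was 61.9%, the high share 32.7% and the mean 35.0%, and at a minimum of 20 they were 56.8%, 37.5% and 39.8%. With class limits of 10 and 90 the low, intermediate and high shares were 59.1%, 10.6% and 30.3%, and with limits of 30 and 70 they were 61.8%, 3.16% and 35.0%. Classes from pooled counts gave 5.13% intermediate and 34.0% high. Without positions above the 99th percentile of counts the high share was 33.6% and the mean 35.8%. Equal-count groups counted once, added after seeing the data, gave 39.9% low, 14.5% intermediate and 45.6% high at a mean of 52.5%. This intermediate share can include groups whose mean mixed low and high positions. Leaving out a replicate took as members all autosomal positions with at least 10 counts in the other library, so the positions changed too. This gave low shares of 60.8% to 61.8%, intermediate shares of 5.13% to 5.61%, high shares of 33.1% to 33.6% and means of 35.2% to 36.0%.

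The low share of tiles of at least 8 positions minus that of positions alone was 72.7 points at a minimum of 5, 71.0 at 20, 73.5 with limits of 10 and 90, 70.5 with 30 and 70, 72.6 with CpG strands merged, 72.5 with density over all covered positions, 75.8 with tiles of 200 bases, 79.7 over groups and 72.2 to 72.8 without a replicate. For spacing of 2 to 10 against over 10000 bases the difference was 70.3, 64.4, 69.5 and 68.3 points under the first 4 of these, 69.1 from pooled counts, 69.3 with strands merged, 55.5 over groups and 69.2 to 69.9 without a replicate. The same-class share at 2 to 10 bases minus that over 1000 and up to 10000 was 40.8 and 37.1 points at minima of 5 and 20, 44.0 and 38.1 with the 2 other pairs of limits, 39.3 over groups and 39.6 to 40.7 without a replicate. Chromosome 8 minus chromosome 19 was 6.34 and 6.98 points at minima of 5 and 20, 8.46 with strands merged, 9.26 without the deepest positions, 9.23 over groups and 8.00 to 8.10 without a replicate.

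The number of positions that differed between replicates was 1 at a minimum of 5, 0 at 20 and 70 on tile sums, where a read counts once per position it covers. Depth limits single positions, at a median of 21 and 19 counts in replicates 1 and 2.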

Other observations

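Chromosome X lay outside the members. Its 544 positions with at least 10 counts in both sperm libraries averaged 39.2% and 39.9% in replicates 1 and 2, and 53.1% of them were at 20% or less in each library. Intermediate levels were more frequent there, at 13.8% and 12.9% in replicates 1 and 2, against 5.26% and 5.61% of the autosomal members.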
